A study of Mus musculus with 4 samples.

Results

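The platelet-derived growth factor (PDGF) family and 2 pericyte genes were examined in visceral and parietal mesothelium of the mouse, the thin epithelia that cover the abdominal organs and line the body wall. The 8 genes are the ligands Pdgfa, Pdgfb, Pdgfc and Pdgfd, the receptors Pdgfra and Pdgfrb, and Rgs5 and Cspg4, out of 19938 genes that could be named on the array. They were chosen by symbol, and each was measured by 1 probe set annotated to that gene alone. Both groups came from untreated adult Wt1-cre;Rosa26ReYFP mice on a c57bl/6 background, in which Cre driven by Wt1, a gene of mesothelial cells, switches on a yellow fluorescent reporter. Mesothelium of the omentum makes up the visceral group, and the lining of the abdominal wall, peeled away from its muscle, the parietal group, with 2 Affymetrix Mouse Gene 1.0 ST arrays for each. The tissue was used as isolated, without sorting on the reporter, and the number of mice behind an array is not given in the labels. Values are log2 signals after robust multi-chip average (RMA) normalization by the authors, a scale on which a step of 1 is a doubling. Such a signal has no true zero, and it can be compared between arrays for one gene but not between genes. Where a gene is set against the median signal of all genes below, this is therefore only a rough guide. Linear signals summed over a list are compared between arrays only, and bright probe sets weigh most in them.

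PDGF ligands are secreted as dimers and act through a pair of receptor tyrosine kinases. PDGF-A and PDGF-C act mainly through PDGF receptor alpha, PDGF-D mainly through receptor beta, and PDGF-B through both. In vessel walls, endothelial cells release PDGF-B and the surrounding pericytes, which carry receptor beta, are recruited by it, whereas receptor alpha is typical of fibroblasts and other stromal cells. Mesothelial cells are known to respond to PDGF, and in development they give rise to pericytes and smooth muscle of visceral vessels.

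Pearson's r of the log2 values was 0.992 between the visceral and 0.993 between the parietal replicates, and 0.965 to 0.969 for pairs from different tissues, across probe sets, which are not independent replicates. Of 18 mesothelial markers, 17 had a mean over the 4 arrays above the all-gene median, the exception being Calb2, which encodes calretinin. Limma, at an adjusted p below 0.05 and a fold of at least 1.5, called 1 of the 18 higher and 9 lower in visceral mesothelium, with a median log2 difference of -0.75 and summed linear signals of 67120 to 69620 in visceral and 102800 to 106100 in parietal arrays. Msln, mesothelin, had 10.70 and 10.82 in visceral mesothelium and 12.96 and 12.83 in parietal mesothelium (-2.14), whereas Upk3b, a surface protein, had 13.59 and 13.65 in visceral and 13.79 and 13.84 in parietal mesothelium and did not pass (-0.20). All 20 markers of skeletal muscle were called lower in visceral mesothelium, and their summed linear signal ran from 2894 to 2984 in visceral and from 83950 to 108900 in parietal arrays. Of 12 macrophage markers, 11 were called higher in visceral mesothelium, with sums of 23770 to 25260 against 6540 to 7387 in parietal arrays. Over all genes, 9.6% were called in either direction. In such bulk RNA, fewer cells of a type and less RNA per cell cannot be told apart.

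Visceral and parietal arrays were compared with limma, in which genes share an estimate of the spread, and a gene was called where the fold reached 1.5 and the Benjamini-Hochberg adjusted p lay below 0.05. Of the 8 genes, 4 were called. Pdgfrb was higher in visceral mesothelium, while Pdgfa, Pdgfd and Rgs5 were lower. The methods' t-test on the same values called 0 of the 8 and 0 of 19938 genes after adjustment, with adjusted p from 0.1325 to 0.223 for these 4, and the same 4 of the 8 without adjustment. Over all genes limma called 9.6%, with 5.22% higher and 4.39% lower in visceral mesothelium. The median size of the log2 difference was 0.49 over the 8 genes and 0.14 over all genes. In 6 of the 8 the arrays of the tissues did not overlap, which was so for 56.3% of all genes. The arrays are labelled biological replicates with no animals named, so the spread behind the p-values is that of these 4 arrays and may be technical.

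**Figure D1:**
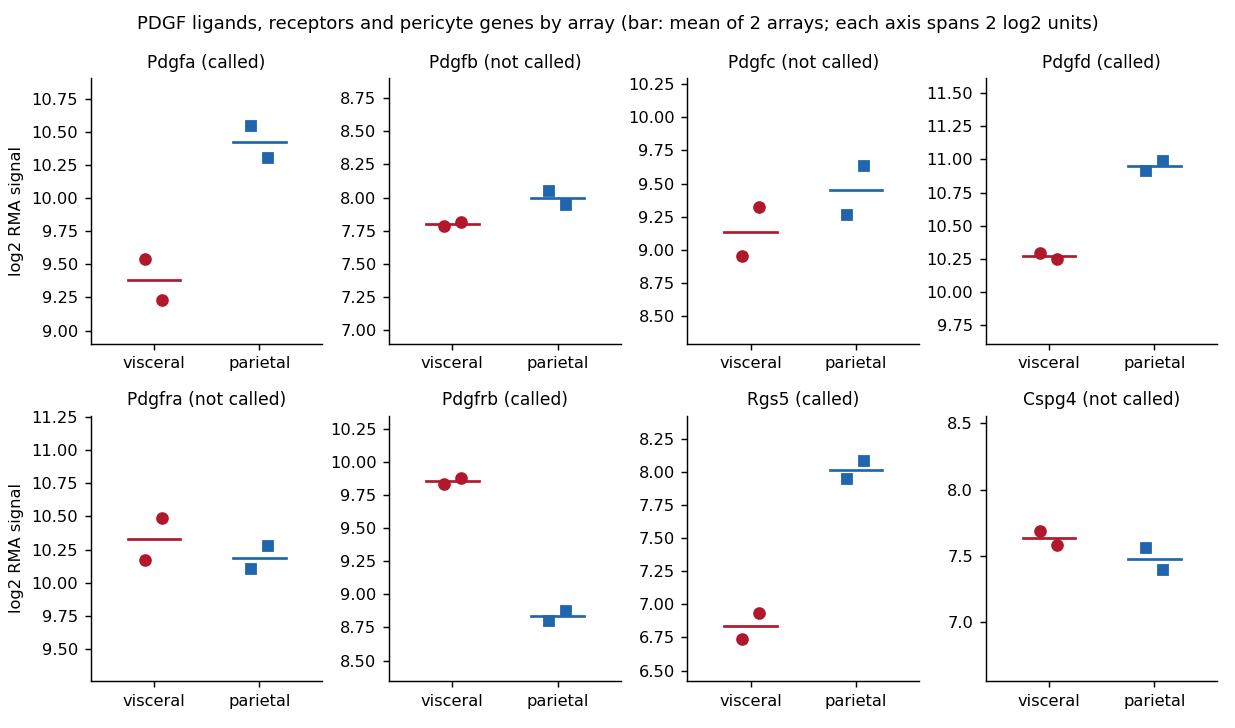
Log2 RMA signal (y axis, 2 units in every panel) of each gene in the 2 visceral (circles, left) and 2 parietal arrays (squares, right), with a bar at the mean of each tissue. Pdgfrb lies at 9.83 and 9.88 in visceral against 8.80 and 8.88 in parietal mesothelium, and Pdgfa, Pdgfd and Rgs5 lie lower in visceral mesothelium.

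Among the ligands, Pdgfa, which encodes the PDGF-A chain, had signals of 9.54 and 9.23 in visceral mesothelium, against 10.54 and 10.30 in parietal mesothelium. Both visceral arrays lay below both parietal arrays, with a gap of 0.76 between the nearest ones. The log2 difference was -1.04 (standard error 0.14, adjusted p = 0.00688 by limma), or 2.06-fold lower in visceral mesothelium, and it ran from -1.19 to -0.89 with 1 array left out in turn.

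Pdgfd, whose product is released as an inactive precursor and must be cleaved before it binds its receptor, had 10.29 and 10.25 in visceral mesothelium and 10.91 and 10.99 in parietal mesothelium. Replicates of this gene were close together, 0.04 apart in visceral and 0.08 apart in parietal mesothelium, against a gap of 0.62 between the tissues. The log2 difference was -0.68 (standard error 0.08, adjusted p = 0.00493 by limma). This 1.6-fold difference lies near the fold threshold, and its 95% interval, -0.88 to -0.47, holds values short of it.

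Pdgfb, the ligand of pericyte recruitment, had 7.79 and 7.81 in visceral mesothelium, against 8.05 and 7.94 in parietal mesothelium. The arrays did not overlap, but the difference of -0.20 did not pass (95% interval -0.41 to 0.01, adjusted p = 0.209 by limma). Pdgfc, which like Pdgfd encodes a precursor with an amino-terminal CUB domain, had 8.95 and 9.32 in visceral and 9.26 and 9.64 in parietal mesothelium. Its tissues overlapped, since the spread between replicates, 0.37 in each tissue, exceeded the difference of -0.31 (95% interval -0.75 to 0.12, adjusted p = 0.327 by limma). The intervals of Pdgfb and Pdgfc do not exclude a lower level in visceral mesothelium, and for Pdgfc they reach past the fold threshold.

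Of the receptors, Pdgfrb had signals of 9.83 and 9.88 in visceral mesothelium, against 8.80 and 8.88 in parietal mesothelium. Replicates differed by 0.05 and 0.08 while the tissues were separated by 0.95. The log2 difference was 1.02 (standard error 0.08, 95% interval 0.81 to 1.22, adjusted p = 0.00118 by limma), or 2.02-fold higher in visceral mesothelium. With 1 array left out in turn it stayed between 0.98 and 1.05 and was called each time.

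Pdgfra had 10.17 and 10.49 in visceral mesothelium and 10.10 and 10.27 in parietal mesothelium. The arrays overlapped, and the difference of 0.14 did not pass (95% interval -0.19 to 0.47, adjusted p = 0.572 by limma). Leaving out visceral replicate 2 turned it to -0.0196, and leaving out visceral replicate 1 gave 0.30. Pdgfrb minus Pdgfra within an array was -0.34 and -0.61 in visceral mesothelium, against -1.30 and -1.40 in parietal mesothelium, a shift of 0.88 with no overlap. This shift restates the called difference of Pdgfrb and the uncalled one of Pdgfra and is no further evidence. An exact two-sided permutation test over the 6 splits of the arrays gave p = 0.333. That is the smallest value that 2 arrays against 2 allow, so the test could not decide.

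Averaged over the 4 arrays, both pericyte genes lay below the median signal of all genes, 7.73, although Rgs5 was above it in both parietal arrays. Rgs5, a regulator of G protein signaling that is widely used as a pericyte marker, had 6.74 and 6.93 in visceral mesothelium, against 7.94 and 8.08 in parietal mesothelium. This was the difference of the greatest size among the 8 genes, -1.18 (standard error 0.11, 95% interval -1.44 to -0.91, adjusted p = 0.00161 by limma), or 2.26-fold lower in visceral mesothelium. It ran opposite to that of Pdgfrb, which pericytes also carry. Pdgfrb minus Rgs5 within an array was 3.09 and 2.95 in visceral mesothelium, against 0.86 and 0.80 in parietal mesothelium. This shift of 2.19 restates the 2 called differences of opposite sign and is no further evidence. The same exact permutation test gave p = 0.333, the smallest value it allows here, so it could not decide.

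Cspg4 encodes NG2, a membrane proteoglycan of pericytes and of immature glial cells that binds PDGF-A. Its signals were 7.68 and 7.59 in visceral mesothelium, against 7.56 and 7.40 in parietal mesothelium. The nearest arrays of the tissues were 0.02 apart, less than the spread within either tissue. The difference of 0.16 did not pass (95% interval -0.09 to 0.40, adjusted p = 0.377 by limma).

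**Figure D2:**
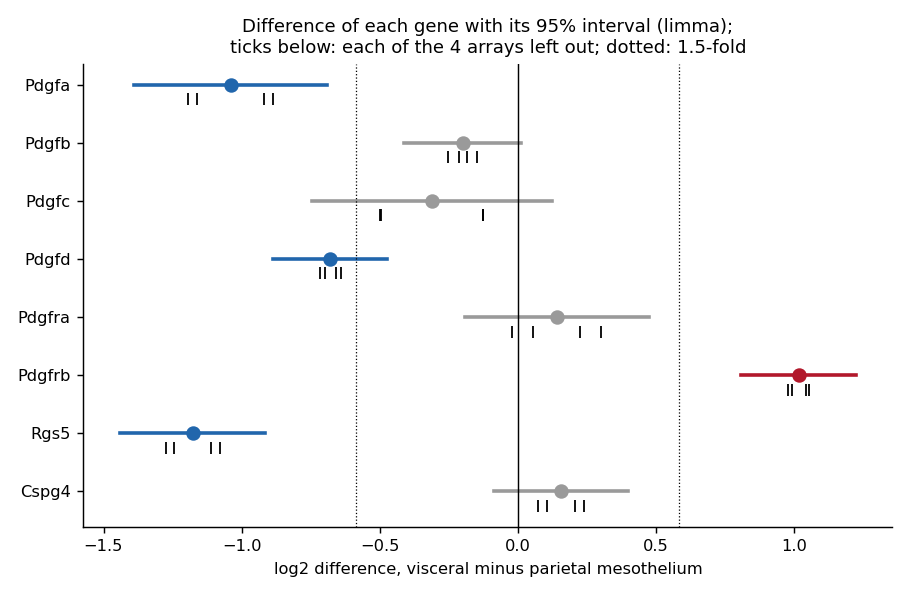
Visceral minus parietal log2 difference (x axis) of each gene (y axis) with its 95% interval; red is called higher and blue called lower in visceral mesothelium, grey is not called, and the ticks under each point are the values with each of the 4 arrays left out. Pdgfrb stands at 1.02 and Rgs5 at -1.18, and the ticks of Pdgfra lie on both sides of 0.

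The windows around the transcription starts of the 3 genes that were lower in visceral mesothelium are shown because these genes moved in the same direction. RefSeq (GRCm38.p6) windows of 250 bases before to 50 after a start were at hand for 6 of the 8 genes. Motifs were searched on both strands, namely the TATA box (TATAAA), the GC box (GGGCGG), the E-box (CANNTG), a motif bound by WT1 and EGR1 (GCGGGGGCG) and the CArG box of serum response factor. Capitals mark the matches, and overlaps between motifs were allowed. Pdgfa has a second window, not shown, with 1 GC box.
Pdgfa, chr5:138994895-138995194, minus strand: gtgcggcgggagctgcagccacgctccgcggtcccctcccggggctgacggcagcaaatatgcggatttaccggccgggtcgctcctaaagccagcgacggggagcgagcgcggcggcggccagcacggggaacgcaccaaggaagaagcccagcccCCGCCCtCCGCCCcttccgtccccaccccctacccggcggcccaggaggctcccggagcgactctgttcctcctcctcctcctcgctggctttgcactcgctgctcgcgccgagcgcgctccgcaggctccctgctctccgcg
Pdgfd, chr9:6168236-6168535, plus strand: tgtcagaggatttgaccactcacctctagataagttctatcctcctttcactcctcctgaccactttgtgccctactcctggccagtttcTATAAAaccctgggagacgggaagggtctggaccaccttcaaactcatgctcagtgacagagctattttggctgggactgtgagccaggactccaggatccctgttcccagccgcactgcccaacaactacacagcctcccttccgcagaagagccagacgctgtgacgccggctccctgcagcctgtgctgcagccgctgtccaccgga
Rgs5, chr1:169655251-169655550, plus strand: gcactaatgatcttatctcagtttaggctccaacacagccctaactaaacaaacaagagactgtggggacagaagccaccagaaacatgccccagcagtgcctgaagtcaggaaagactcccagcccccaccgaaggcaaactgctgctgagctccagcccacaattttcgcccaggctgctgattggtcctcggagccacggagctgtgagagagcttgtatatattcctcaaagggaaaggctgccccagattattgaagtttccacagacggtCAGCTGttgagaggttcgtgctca
These windows differ in composition. The Pdgfa window is 73.3% G or C and holds 37 CG dinucleotides, against 56.7% and 8 for Pdgfd and 52.3% and 6 for Rgs5, while the median over 32851 windows of all genes is 52.7%. The Pdgfa window has 2 GC boxes, a motif found in 35.7% of all windows. Pdgfd has a TATA box 160 bases before its annotated start (13.6% of all windows hold one), and Rgs5 has an E-box 27 bases after its start (72.3%). No motif occurred in all 3 of these windows, and the WT1 and EGR1 motif, found in 2.91% of all windows, was in none of the windows of the 6 genes searched. A CArG box (1.63% of all windows) was found 17 bases before the start of Pdgfc. A match is a stretch of letters and does not show that a factor binds there.

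Of 15 measured genes whose products cleave or bind PDGF, 3 were called higher and 2 lower in visceral mesothelium, 33.3% against 9.6% of all genes. Their median difference was 0.02. Plau, the urokinase plasminogen activator, which can activate PDGF-D, had 10.28 and 10.61 in visceral mesothelium, against 8.10 and 7.86 in parietal mesothelium (difference 2.46, adjusted p = 0.000394 by limma). Plat, the tissue plasminogen activator, which can activate PDGF-C, had 11.79 and 11.75 in visceral and 9.73 and 9.72 in parietal mesothelium (2.04, adjusted p = 0.000122 by limma). St14, matriptase, which can also cleave PDGF-D, had 7.13 and 7.15 in visceral and 7.11 and 7.14 in parietal mesothelium and did not pass (0.02).

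Pdgfrl, which encodes a secreted protein resembling the ligand-binding part of the receptors, had 7.38 and 7.46 in visceral mesothelium, against 10.53 and 10.16 in parietal mesothelium. At -2.92 (adjusted p = 0.00019 by limma) its difference was the greatest in size among the PDGF-related genes listed. Pcsk5, a proprotein convertase, averaged 8.11 ± 0.16 in visceral and 9.46 ± 0.14 in parietal mesothelium (SD, n = 2 arrays each; -1.34). Nrp1, a co-receptor for several growth factors, was called higher in visceral mesothelium, with 8.87 and 9.07 against 7.81 and 7.58 (1.27). The other 10 genes did not pass. Among them, the convertase Furin (-0.50, adjusted p = 0.0178 by limma) passed on the adjusted p but fell short of the fold. The convertase Pcsk6 (-0.30) passed on neither.

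Of 29 measured genes that carry the signal inside the cell, 1 was called, or 3.45%, against 9.6% of all genes. This was Fyn, a Src family kinase, with 10.04 and 9.95 in visceral mesothelium, against 8.68 and 8.54 in parietal mesothelium (1.38, adjusted p = 0.000615 by limma). Pik3r1, a regulatory subunit of phosphoinositide 3-kinase (0.52), Nck1, an adaptor (0.41), Yes1, another Src family kinase (-0.49), and the phosphatase Ptprj (0.35) passed on the adjusted p but fell short of the fold. The median of the list was 0.08.

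**Figure D3:**
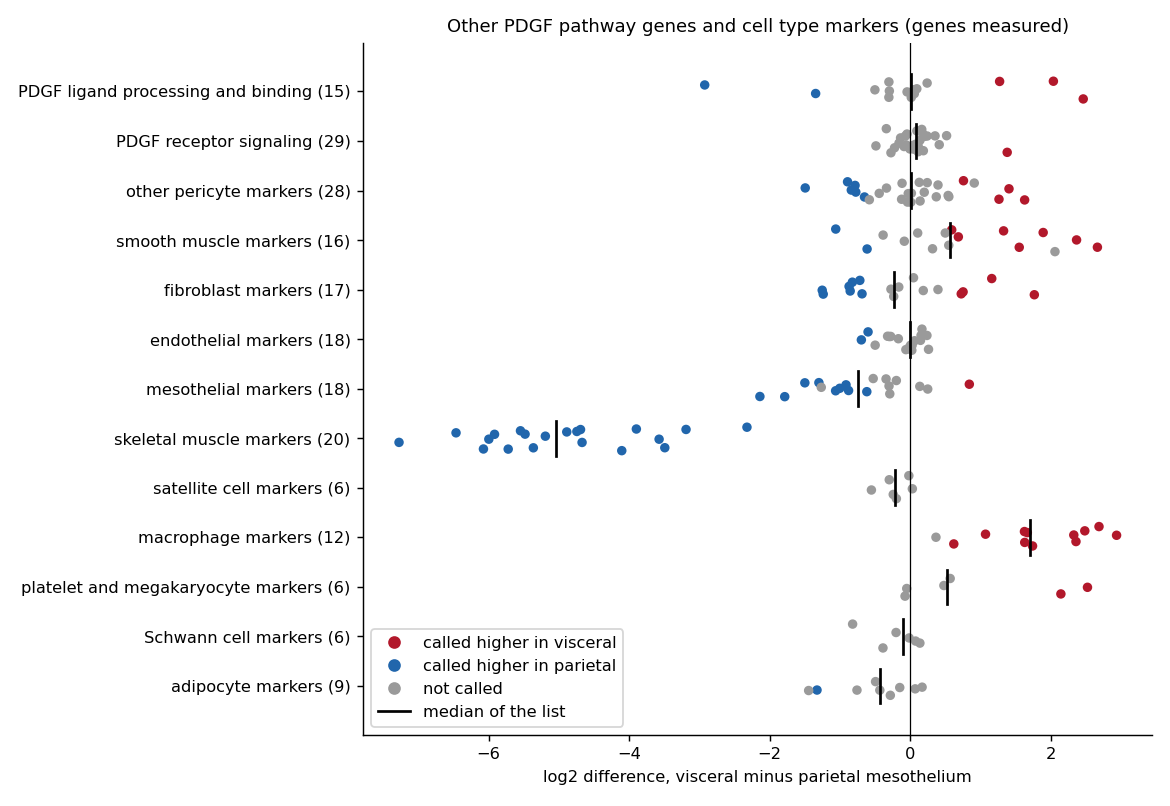
Visceral minus parietal log2 difference (x axis) of the other PDGF pathway genes and of cell type markers (y axis, with the number of genes measured); each point is 1 gene and the black bar is the median of the list. The signaling genes cluster around 0.08 with 1 of 29 called (3.45%, against 9.6% of all genes). The pericyte markers fall on both sides of 0, with 4 called higher and 6 lower in visceral mesothelium (35.7%).

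Other pericyte markers split between the tissues, as Pdgfrb and Rgs5 did. Of 28 measured, 4 were called higher and 6 lower in visceral mesothelium, 18 did not pass, and the median difference was 0.01. Olfml2a, an olfactomedin-like matrix protein, had 8.47 and 8.03 in visceral mesothelium, against 6.80 and 6.89 in parietal mesothelium (1.41). Aoc3, an amine oxidase of vessel walls and adipocytes, had 9.49 and 9.27 in visceral and 8.11 and 7.39 in parietal mesothelium (1.63), and lost its call without visceral replicate 1 (adjusted p = 0.0503 by limma). Foxf2, a transcription factor of brain pericytes and gut mesenchyme, differed by 0.76, and S1pr3, a sphingosine phosphate receptor, by 1.27.

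In the other direction, Ndufa4l2, a mitochondrial protein enriched in pericytes, had 6.85 and 6.84 in visceral mesothelium, against 7.42 and 7.56 in parietal mesothelium (-0.65). It fell below the fold threshold without parietal replicate 2 (-0.58). Des, the muscle intermediate filament desmin, had 10.32 and 9.86 in visceral and 11.31 and 11.86 in parietal mesothelium (-1.49), and Itga7, an integrin chain that is abundant in skeletal muscle, differed by -0.89. Anpep (-0.84), Vtn (-0.78) and Tbx18 (-0.77) were called with all arrays but not without visceral replicate 1, nor without visceral replicate 2. Vtn also lost its call without parietal replicate 2, and Tbx18 without parietal replicate 1. Several widely used pericyte markers did not pass. Kcnj8, a potassium channel subunit, differed by 0.14 (8.23 and 8.13 in visceral, 8.03 and 8.05 in parietal mesothelium), Abcc9, its regulatory partner, by 0.55, Notch3 by -0.03 and Higd1b by 0.01. Abcc9 was called without parietal replicate 2 (0.85, adjusted p = 0.00802 by limma).

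**Figure D4:**
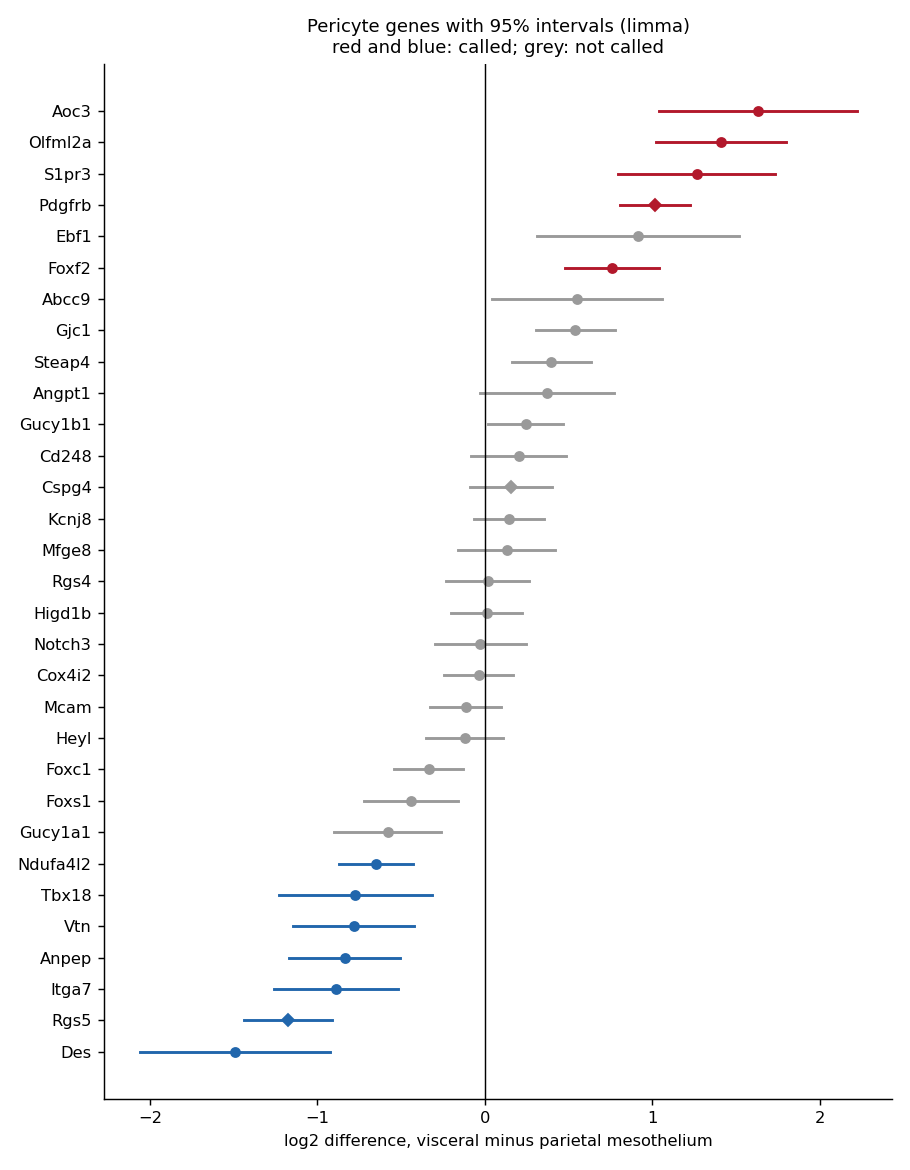
Visceral minus parietal log2 difference (x axis) with 95% intervals for 28 pericyte markers (circles) and for Pdgfrb, Rgs5 and Cspg4 (diamonds), in order of the difference; red is called higher and blue called lower in visceral mesothelium, grey is not called. Pdgfrb at 1.02 and Rgs5 at -1.18 lie near opposite ends, with Kcnj8, Notch3 and Higd1b close to 0.

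Markers of other cells that carry PDGF receptors or release PDGF were examined as well, and not all of these lists moved with the genes above. Beside the higher Pdgfrb, 7 of 16 smooth muscle markers were called higher and 2 lower in visceral mesothelium, 56.2% against 9.6% of all genes. Their summed linear signal was 13170 and 9670 in visceral and 6512 and 6456 in parietal arrays. Myh11, the smooth muscle myosin heavy chain, had 9.81 and 9.65 in visceral mesothelium, against 6.87 and 7.25 in parietal mesothelium (2.67). Between the visceral replicates, some of these genes were further apart than others. Cnn1, a calponin, had 10.08 in replicate 1 and 8.42 in replicate 2. Smtn, smoothelin, had 10.95 and 11.15 and Synpo2, an actin-binding protein, 9.06 and 9.04. The Synpo2 difference, 0.59, ran from 0.53 to 0.65 with 1 array left out in turn, on both sides of the fold threshold. The 2 called lower were Casq2 (-1.06), with 5.68 and 5.91 in visceral and 6.72 and 6.99 in parietal mesothelium, and Mylk (-0.61). The Mylk difference ran from -0.73 to -0.50 with 1 array left out in turn, also on both sides of the fold threshold. The part of smooth muscle cells in the Pdgfrb difference was not tested.

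Fibroblast markers, which mark the cells best known for Pdgfra, split between the tissues. Of 17 measured, 4 were called higher and 7 lower in visceral mesothelium, 64.7% against 9.6% of all genes. The median was -0.23 and the sums overlapped (79900 to 82360 in visceral, 74590 to 82510 in parietal arrays). Fn1, fibronectin (1.77), and Mfap5, a microfibril protein (1.16), were among those higher, and Pi16 (-1.24) and Thy1 (-0.87) among those lower in visceral mesothelium.

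Beside the lower Pdgfa, Pdgfd and Rgs5, the 20 skeletal muscle markers were lower in visceral mesothelium, as given above, with a median of -5.04. The mesothelial markers were lower on balance as well, with 9 of 18 called lower, 1 called higher (Wt1, 0.84) and a median of -0.75, against -1.04 for Pdgfa, -0.68 for Pdgfd and -1.18 for Rgs5. Acta1, skeletal actin, had 7.83 and 7.81 in visceral mesothelium, against 13.22 and 13.38 in parietal mesothelium. Between the parietal replicates, the muscle sum was 83950 in replicate 1 and 108900 in replicate 2, while Pdgfa was 10.54 and 10.30, Pdgfd 10.91 and 10.99, and Rgs5 7.94 and 8.08. The part of muscle tissue, and of the amount of mesothelial RNA, in these differences was not tested.

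Most endothelial markers, which mark the cells that release PDGF-B, were not called. Of 18, 2 were called lower in visceral mesothelium, 11.1% against 9.6% of all genes, and the median was 0.00, with sums of 4749 to 5053 in visceral and 5938 to 6165 in parietal arrays. Esam, an adhesion molecule of endothelial junctions, had 10.34 in both visceral arrays, against 10.99 and 11.08 in parietal mesothelium (-0.69). Cdh5, the endothelial cadherin, had 7.13 and 7.24 in visceral and 7.75 and 7.82 in parietal mesothelium (-0.60), and fell below the fold threshold without visceral replicate 1 or without parietal replicate 2. Kdr (-0.50, adjusted p = 0.0409 by limma) passed on the adjusted p but fell short of the fold. Robo4 (-0.28), Pecam1 (0.24), Vwf (-0.01) and Tie1 (0.03) did not pass. Only 5 of the 18 reached the median signal of all genes.

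The genes whose values over the 4 arrays lay closest to those of each called gene were sought by the root mean square difference of log2 values centred on each gene's own mean. For Pdgfrb these were Pros1 (0.02), Alcam (0.02) and Cadps (0.03), and for Pdgfa they were Tm4sf5 (0.02), Dync1i2 (0.03) and Zfp469 (0.04). For Pdgfd they were Gas1 (0.01), Mir717 (0.01) and Dpp4 (0.01), and for Rgs5 they were Lvrn (0.03), Map3k7cl (0.03) and Anxa3 (0.04). With 4 arrays such likeness is common. Within 0.1 of Pdgfrb lay 105 genes, and within 0.1 of Pdgfd, Rgs5 and Pdgfa lay 253, 43 and 30.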

How the data were processed

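The 4 arrays were scanned and normalized by the authors, who deposited log2 values per probe set made by RMA, per the labels in Partek 6.6. RMA equalizes the distributions of the arrays, so a change shared by most genes would not be seen. The library version used is not given in the sources used here. Of 35556 probe sets, 21789 carry 1 gene symbol, 1621 several and 12146 none in the platform annotation, and 21698 were found in a RefSeq table of GRCm38.p6, with no symbol changed. A gene was represented by the single-symbol probe set with the highest mean, which gave 19938 genes.

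Differences were fitted by limma 3.58.1 (R 4.3.3) over all 4 arrays without a block, and p-values were adjusted over all genes by the Benjamini-Hochberg method. The code was tested on simulated data. Named genes are the 8 genes, the 3 closest patterns of each called gene, and genes picked from the lists. These picks include genes of low adjusted p and defining markers, but followed no single rule. Genes and lists were chosen with earlier results of these data known. Alternatives covered the test, thresholds, variance prior, normalization, dim genes, probe summary, a replicate block and each array left out. The number of arrays limits the precision.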

Additional observations from a re-analysis of the deposited data

How the results depend on the processing

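The methods' t-test, a one-way ANOVA of the tissues on the same values, called none of the 8 genes after adjustment, with differences of -1.04 for Pdgfa (adjusted p = 0.223), -0.68 for Pdgfd (0.141), 1.02 for Pdgfrb (0.1325) and -1.18 for Rgs5 (0.162), the cause being not tested. It called 0 of 19938 genes and 0 of 200 further listed genes, where limma called 1915 and 82; without adjustment it called 4 of the 8, 1582 genes and 70 listed genes. A fold of 2 left 978 genes and 3 of the 8, Pdgfd at -0.68 being under it by construction. Pdgfra, 0.14 with all arrays and not called, turned to -0.0196 without visceral replicate 2 and ranged up to 0.30 with another array left out. With each array left out, 4 of the 8 were called, and the number of genes called was 1696 to 2095 and of listed genes 79 to 86; the tissue left with 1 array is then assumed to vary like the other. The 4 called genes kept direction and call under 3 further normalizations, other variance priors, the mean of a gene's probe sets and all probe sets in the fit. Restricting the fit to genes at or above the median signal left out Rgs5 and Cspg4. The replicate numbers are not known to mark the same mice, although same-numbered arrays deviated together (r = 0.356 over genes). With the number as a replicate block in limma, 4 of the 8, 2008 genes and 85 listed genes were called. Pdgfa then had an adjusted p of 0.00172 by limma, and no call of the 8 changed. Pdgfc, at -0.31 and short of the fold, had an adjusted p of 0.0506 by limma with the block, against 0.327 without it. Dim signals limit Rgs5, Cspg4 and most endothelial markers.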

Other observations

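Platelets and their precursors store PDGF. Of 6 measured markers of these cells, 2 were called higher in visceral mesothelium, 33.3% against 9.6% of all genes called in either direction. Pf4, a platelet chemokine that macrophages also make, had 9.95 and 9.98 in visceral and 7.83 and 7.81 in parietal mesothelium (2.15). Ppbp, another platelet chemokine, had 9.58 and 7.95 in visceral and 6.34 and 6.14 in parietal mesothelium (2.53), so that the visceral replicates differed by more than a log2 unit. Itga2b, the platelet integrin chain, differed by -0.07 and did not pass, nor did Gp9 (0.48), which was called without visceral replicate 2.

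Limma called 0 of 6 satellite cell markers, 2 of which had an unadjusted p under 0.05, as they did by the methods' t-test, which called 0 after adjustment. Pax7, the defining transcription factor of these muscle stem cells, differed by -0.02, and Myod1 by -0.55, with a call without parietal replicate 1. Limma called 0 of 6 Schwann cell markers, 2 of which had an unadjusted p under 0.05 (1 by the methods' t-test, which called 0 after adjustment); Cdh19, at -0.82, was called without parietal replicate 1 and with the replicate block.

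Of 9 adipocyte markers 1 was called, 11.1% against 9.6% of all genes. This was Plin4, a lipid droplet protein, lower in visceral mesothelium (-1.33). Adipoq, the adipocyte hormone adiponectin, had 5.99 and 5.96 in visceral mesothelium, against 7.50 in parietal replicate 1 and 5.96 in parietal replicate 2. Without parietal replicate 2, 5 adipocyte markers were called. With 1 array left out in turn, the differences ran from -1.19 to -0.89 for Pdgfa and from -0.72 to -0.64 for Pdgfd. They ran from 0.98 to 1.05 for Pdgfrb and from -1.27 to -1.08 for Rgs5. The part of adipocytes in these differences was not tested.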
